A study of Mus musculus with 6 samples.

Results

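The spleen clears old red cells and returns their iron to the blood, and the 10 genes described here carry out the steps of that work after a red cell has been taken up. They are Hmox1, Blvra, Blvrb, Slc48a1, Slc11a1, Fth1, Ftl1, Ncoa4, Slc40a1 and Heph, found by symbol among the 26452 genes of the deposited table. Spleen RNA was sequenced from 3 knockout and 3 wild-type male mice, all 10 weeks old. The knockout mice (KO; KO451, KO452 and KO457) were Was -/- and of the line 129S6/SvEvTac-Wastm1Sbs/J, in which the Was gene is targeted in the germline, and the wild-type mice (WT; WT453, WT454 and WT455) were 129S6/SvEvTac. No other allele and no treatment is given for either group, and whether the groups were littermates is not given in the sources used here. Was encodes the Wiskott-Aldrich syndrome protein, which drives actin assembly in blood cells. Each library has its own number in the labels, but no label ties a number to an animal, so the p-values below measure only the spread between these samples, which may be in part technical.

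Red pulp macrophages engulf aged red cells and digest them in the phagolysosome. Heme leaves that compartment through the transporter encoded by Slc48a1, and heme oxygenase 1 (Hmox1) opens its ring to release iron, carbon monoxide and biliverdin, which biliverdin reductases (Blvra, Blvrb) reduce further. The freed iron is stored in ferritin, a shell of heavy (Fth1) and light (Ftl1) chains, is released again when the cargo receptor encoded by Ncoa4 takes ferritin to the lysosome, or leaves the cell through ferroportin (Slc40a1). Developing red cells use several of the same genes: they also store iron in ferritin, turn it over by way of Ncoa4 and make the reductase encoded by Blvrb.

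In all 9 members with enough reads to test, the mean was higher in KO spleens, by between 1.52-fold for Slc40a1 and 3.66-fold for Blvrb. None of the 9 passed the test adjusted over all genes. The differences were widest for the biliverdin reductases, at 3.66-fold for Blvrb and 2.81-fold for Blvra. That of the iron exporter Slc40a1 was the smallest, but Ftl1 was close at 1.56-fold. With quantile normalization, Ftl1 had the smaller difference, with a log2 fold change of 0.32 against 0.55 for Slc40a1. WT453, a library that stood apart from the others in many genes, was the lowest of the 6 libraries in each of the 9 genes, and the differences were smaller without it. Heph had 2 reads in 1 library and none in the other 5.

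Translation of both ferritin chains is controlled through an iron-responsive element, a hairpin ahead of the start codon to which iron regulatory proteins bind when iron is scarce, so that ferritin protein need not follow ferritin mRNA. The hairpin loops of the 2 transcripts are shown because the levels below are those of mRNA only. The capitals mark the loop motif CAGTGN, which a search of the 224 bases ahead of the Fth1 start codon and the 253 bases ahead of the Ftl1 start codon found once in each. The 30-base windows were read on the transcribed strand from the GENCODE M21 transcripts of GRCm38, at chr19:9982732-9982761 on the plus strand for Fth1 and chr7:45459778-45459807 on the minus strand for Ftl1.
Fth1: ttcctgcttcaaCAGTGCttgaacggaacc
Ftl1: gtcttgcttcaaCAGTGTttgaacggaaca
The windows were identical at 26 of 30 bases.

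Several of these genes are known targets of NRF2 and of its heme-sensing rival BACH1, which bind antioxidant response elements with the core TGACNNNGC. The core was searched on both strands from 250 bases before to 50 bases after each start in RefSeq promoters of GRCm38.p6, which held 10 promoters of 6 members. Hmox1, Slc48a1, Slc40a1 and Heph had no promoter among them and were not searched. The core was found in 2 of these 10 promoters, one of Blvra and one of Ncoa4, and in 12.4% of all 32851 promoters. TGAGTCA, a site of AP-1 and Maf proteins that does not contain this core, was found in none of the 10 and in 5.2% of all promoters. The 120 bases before the start are shown for the 2 biliverdin reductases, which had the widest differences, and for the Ncoa4 promoter with a match. Each runs on the plus strand, with the core in capitals where it was found: chr2:127070537-127070656 for Blvra, where it lies on the other strand 49 bases before the start, chr7:27447858-27447977 for Blvrb, and chr14:32165669-32165788 for Ncoa4, where it lies 44 bases before the start.
Blvra: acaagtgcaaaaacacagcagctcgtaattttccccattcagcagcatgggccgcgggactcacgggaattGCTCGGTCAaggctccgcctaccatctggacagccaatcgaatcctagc
Blvrb: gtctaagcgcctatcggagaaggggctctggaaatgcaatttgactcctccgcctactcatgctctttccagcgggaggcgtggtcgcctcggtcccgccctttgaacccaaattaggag
Ncoa4: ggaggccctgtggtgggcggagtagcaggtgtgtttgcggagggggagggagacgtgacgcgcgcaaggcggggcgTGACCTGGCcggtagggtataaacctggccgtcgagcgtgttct
A match of letters does not show that a factor binds there, and sites farther from the start were not searched.

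The reads assigned to genes numbered between 33352673 and 35001679 in KO libraries and between 30661759 and 38402758 in WT libraries, and a count of 0 allows up to 3 reads, or 0.0781 to 0.0978 CPM (reads per 1000000 assigned reads), for counting error only. Was averaged 12.4 CPM over the KO libraries and 177 CPM over the WT libraries, a log2 fold change of -3.66 ± 0.25 (SE, limma, Benjamini-Hochberg adjusted p = 0.0117), which matches the labels. Markers of spleen cells were present in both groups, with summed B cell markers of 1484 to 3109 CPM in KO and 1563 to 5349 CPM in WT libraries. Only 3 of 6 listed liver markers were found by symbol, and they summed to at most 0.0899 CPM in KO and 0.326 CPM in WT libraries. WT453 had a median correlation of 0.934 with the other libraries, which had 0.958 to 0.968 each. Relative to the 6-library mean of log2 values, its mitochondrial mRNAs lay at -2.08, its macrophage markers at -1.74 and its red cell precursor markers at -2.19, whereas its neutrophil markers lay at 1.93 and its immediate early genes at 2.002. KO451 had the highest red cell precursor markers, at 2.57 on that scale. The part of these differences in the results below was not tested, and the fold changes of the members are given with and without WT453.

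Levels below are normalized read counts, the reads of a gene divided by the authors' size factor of the library. Fold changes are differences of the log2 values with their standard errors (SE), tested with limma over 22071 genes.

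Hmox1, which encodes the inducible heme oxygenase (chromosome 8, 75093621 to 75100589, plus strand, GRCm38), had the widest log2 spread between KO libraries of the 9 tested genes, with an SD of 0.82. Its normalized read counts were 28915, 89801 and 48543 in KO451, KO452 and KO457, against 12707.5, 32277 and 40312 in WT453, WT454 and WT455. The groups overlapped, since KO451 lay below WT454 and WT455, and KO452 stood well above all other libraries. The mean was 55753 ± 31077 in KO and 28432 ± 14198 in WT libraries (SD, n = 3 each). The log2 fold change was 0.98 ± 0.55 (SE, 95% interval -0.31 to 2.26), with a Benjamini-Hochberg adjusted p of 0.535 (limma), and it ranged from 0.48 without WT453 to 1.37 without KO451.

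Hmox2 encodes the constitutive heme oxygenase and serves as a partner of Hmox1 within each library. It averaged 59.4 CPM in KO spleens and 57.9 CPM in WT spleens (log2 fold change 0.17 ± 0.21, SE). The log2 ratio of Hmox1 to Hmox2 was 3.996, 5.17 and 4.61 in KO451, KO452 and KO457, and 2.83, 3.95 and 4.57 in WT453, WT454 and WT455. The difference of the ratio was 0.81 between the group means, with an exact two-sided permutation p of 0.2 where 3 against 3 libraries cannot go below 0.1 (adjusted p = 0.3 over the 3 ratios compared). It was 0.33 without WT453, 0.52 without KO452 and 1.204 without WT455.

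Blvrb had the widest difference of the members. It encodes biliverdin reductase B, which acts on fetal forms of biliverdin and on flavins and is abundant in red cells (chromosome 7, 27447978 to 27466144, plus strand). Normalized read counts were 15325, 7954 and 8495 in KO451, KO452 and KO457, against 1962, 2775 and 3870.05 in WT453, WT454 and WT455. Each KO library lay above every WT library, and KO451 stood well above the other KO libraries. The mean was 10591 ± 4108 in KO and 2869 ± 957 in WT libraries (SD, n = 3 each). The log2 fold change of 1.87 ± 0.35 (SE, 95% interval 1.057 to 2.69) had an unadjusted p of 9.02e-04 and an adjusted p of 0.344 (limma), which placed it at rank 42 of the genes tested. It was 1.63 without WT453 and 1.57 without KO451, the lowest value with any 1 library left out.

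Blvra encodes biliverdin reductase A, the main reductase of adult heme breakdown, which makes bilirubin (chromosome 2, 127070665 to 127097084, plus strand). It had normalized read counts of 3882, 3702 and 2595 in KO451, KO452 and KO457, against 736, 1313 and 1744 in WT453, WT454 and WT455. The groups did not overlap, and the lowest KO library was above the highest WT library by a wide gap. The mean was 3393 ± 697 in KO and 1264 ± 506 in WT libraries (SD, n = 3 each). The log2 fold change was 1.49 ± 0.35 (SE, 95% interval 0.67 to 2.31), with an unadjusted p of 0.00335 and an adjusted p of 0.344 (limma), and 1.14 without WT453. The log2 ratio of Blvrb to Blvra was 1.60 ± 0.45 in KO and 1.21 ± 0.18 in WT libraries (SD, n = 3 each), a difference of 0.38 that was not resolved (exact two-sided permutation p = 0.3, adjusted p = 0.3). It was 0.19 without KO451, 0.63 without KO452 and 0.48 without WT453.

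Slc48a1 encodes HRG1, the transporter that moves heme out of the phagolysosome (chromosome 15, 97778520 to 97792692, plus strand). Its libraries held normalized read counts of 9383, 9175 and 7188 in KO451, KO452 and KO457, against 3104, 4671 and 5649 in WT453, WT454 and WT455. All 3 KO libraries lay above all 3 WT libraries, and the spread within KO spleens was small. Its log2 fold change was 0.97 ± 0.27 (SE, 95% interval 0.35 to 1.60), with an unadjusted p of 0.00763 and an adjusted p of 0.346 (limma), and 0.73 without WT453. The gene overlaps Hdac7 on the other strand, which went the other way, at 54.0 ± 14.7 CPM in KO spleens and 93.1 ± 6.45 CPM in WT spleens (SD, n = 3 each). Without a stated strand setting, reads of the overlap cannot be assigned with certainty.

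Slc11a1 encodes NRAMP1, the metal transporter of the phagosome membrane that moves iron toward the cytosol (chromosome 1, 74375195 to 74386062, plus strand). It had normalized read counts of 3273, 5409 and 3226 in KO451, KO452 and KO457, against 1418, 2423 and 3172 in WT453, WT454 and WT455. The groups were apart by a narrow margin between KO457 and WT455, which total-read scaling turned into an overlap, with 88.7 CPM in KO457 and 99.6 CPM in WT455. For Slc11a1 the log2 fold change was 0.80 ± 0.35 (SE, 95% interval -0.03 to 1.63), with an adjusted p of 0.469 (limma), and 0.47 without WT453.

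**Figure D1:**
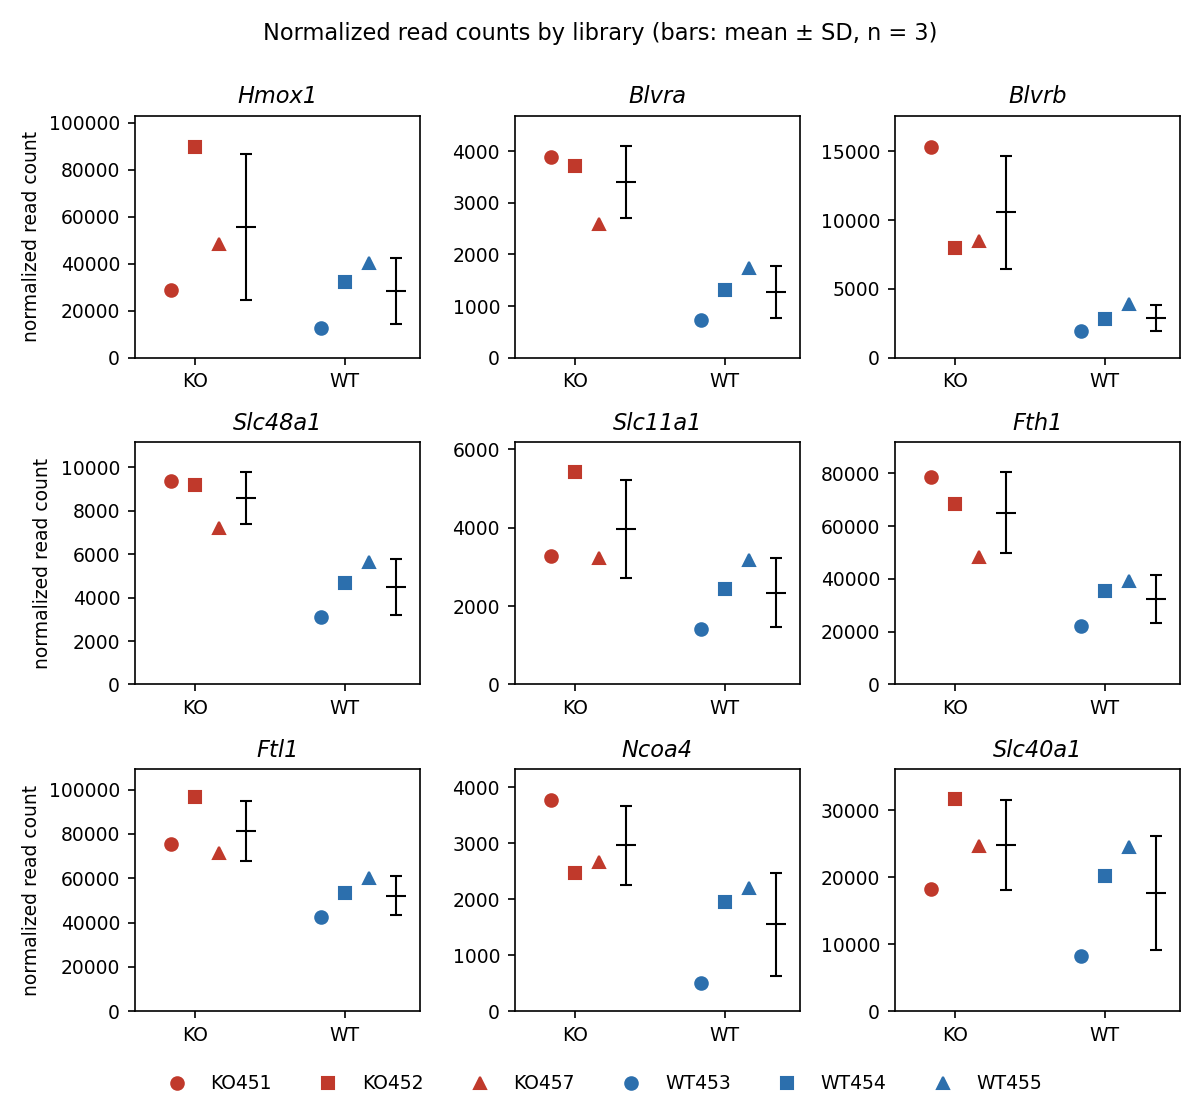
Normalized read counts (linear axes from 0) of the 9 tested genes in each of the 3 KO and 3 WT libraries, with the mean and SD of each group beside the points. The 3 KO libraries lie above the 3 WT libraries in every panel but those of Hmox1 and Slc40a1, and WT453 (blue circle) is the lowest point of each panel.

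The ferritin chains had the highest mean levels of the members in both groups, although Hmox1 lay above Fth1 in KO452, KO457 and WT455. Both chains were higher in each KO library than in any WT library. Fth1 encodes the heavy chain, which oxidizes iron for storage (chromosome 19, 9980598 to 9985098, plus strand). Its normalized read counts were 78372, 68452 and 48260.2 in KO451, KO452 and KO457, against 22067, 35419.9 and 39322 in WT453, WT454 and WT455. For Fth1 the log2 fold change was 1.02 ± 0.31 (SE, 95% interval 0.30 to 1.75), with an unadjusted p of 0.0119 and an adjusted p of 0.355 (limma), and 0.77 without WT453.

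Ftl1 encodes the light chain, which helps the iron core to form (chromosome 7, 45457944 to 45459884, minus strand). Normalized read counts were 75636, 96544 and 71348 in KO451, KO452 and KO457, against 42639, 53555 and 60243 in WT453, WT454 and WT455. KO452 was the highest library here, whereas KO451 was the highest for Fth1. The Ftl1 log2 fold change was 0.64 ± 0.24 (SE, 95% interval 0.07 to 1.21), with an unadjusted p of 0.0324 and an adjusted p of 0.418 (limma), and 0.50 without WT453. The near-identical copies Ftl1-ps1 and Ftl2-ps, which averaged 89.2 and 46.8 CPM in KO spleens against 47.4 and 33.8 CPM in WT spleens, and the miRNA model Gm22133 inside the gene may hold some of its reads. Summed with these, the log2 difference was 0.60, close to that of Ftl1 alone.

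The balance of the chains differed between libraries. The log2 ratio of Fth1 to Ftl1 was 0.05, -0.50 and -0.56 in KO451, KO452 and KO457, against -0.95, -0.60 and -0.62 in WT453, WT454 and WT455. All KO libraries lay above all WT libraries, but KO452 and KO457 lay close to WT454 and WT455, with KO451 the highest and WT453 the lowest. The difference between the group means was 0.38, with an exact two-sided permutation p of 0.1, the smallest that 3 against 3 libraries allow (adjusted p = 0.3). It was 0.19 without KO451 and 0.27 without WT453.

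Ncoa4 encodes the receptor that carries ferritin to the lysosome (chromosome 14, 32159865 to 32179855, plus strand). Normalized read counts were 3765, 2464 and 2664 in KO451, KO452 and KO457, against 505, 1952 and 2198 in WT453, WT454 and WT455. The KO libraries lay above the WT libraries, but WT453 was far below its own group. The log2 fold change of 1.17 ± 0.55 (SE, 95% interval -0.12 to 2.46, limma adjusted p = 0.493) was 0.49 without WT453 (limma adjusted p = 0.318).

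At the step of iron export the groups overlapped. Slc40a1 encodes ferroportin, the only known iron exporter of mammalian cells (chromosome 1, 45908068 to 45926523, minus strand). Normalized read counts were 18215, 31623 and 24676 in KO451, KO452 and KO457, against 8226, 20149 and 24509 in WT453, WT454 and WT455. KO451 lay below WT454 and WT455. The log2 fold change was 0.60 ± 0.43 (SE, 95% interval -0.42 to 1.62, limma adjusted p = 0.632). Without WT453 it was 0.12 (limma adjusted p = 0.83).

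Heph encodes hephaestin, the copper oxidase that loads exported iron onto transferrin in the gut (chromosome X, 96455359 to 96574485, plus strand). It had 2 reads, or 0.06 CPM, in KO452 and 0 reads in KO451, KO457 and the 3 WT libraries. Its level was thus at or under the limit of detection in both groups, and it was not tested. Ceruloplasmin (Cp), the related oxidase of blood plasma, was detected, at 30.0, 8.25 and 6.97 CPM in KO451, KO452 and KO457 and 1.80, 3.02 and 4.34 CPM in WT453, WT454 and WT455. Its groups did not overlap, KO451 was far above the other libraries, and the log2 fold change was 2.20 ± 0.62 (SE), or 1.89 without WT453.

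Across the members, 0 of the 9 tested passed the limma test at a Benjamini-Hochberg adjusted p under 0.05, beside 0.00906% of all genes tested (2 of 22071). With limma voom on the recovered whole reads, 0 passed as well. At an unadjusted limma p under 0.05 and higher in KO spleens there were 5 members, Blvrb, Blvra, Slc48a1, Fth1 and Ftl1, beside 5.5% of all genes. Without KO451, 3 members did so, beside 3.44% of all genes in that fit. Without WT453, 4 did so, beside 8.53%, and without WT455, 7 did so, beside 4.43%. In 7 of the 9, all but Hmox1 and Slc40a1, each KO library lay above each WT library, beside 9.54% of all genes. With total-read scaling this held for 6, beside 6.31% of all genes, and with quantile normalization for 5, beside 8.93%. In 7 of the 9, each KO library lay above both WT454 and WT455, beside 19.2% of all genes.

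The median log2 fold change of the 9 was 0.98, against -0.03 over all genes tested, and without WT453 it was 0.50, against -0.01. All 9 were above 0, as were 47.7% of all genes. The authors' deposited table lists 4 members at an FDR under 0.05, beside 3.58% of all its genes and 2.14% in the direction of higher KO values. In the authors' deposited table these were Blvrb (FDR 1.83e-05), Blvra (0.00199), Slc48a1 (0.0162) and Fth1 (0.0384), and the FDR was 0.155 for Ftl1, 0.353 for Hmox1 and 0.706 for Slc40a1. How that FDR was computed is not given in the sources used here beyond the name DESeq.

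**Figure D2:**
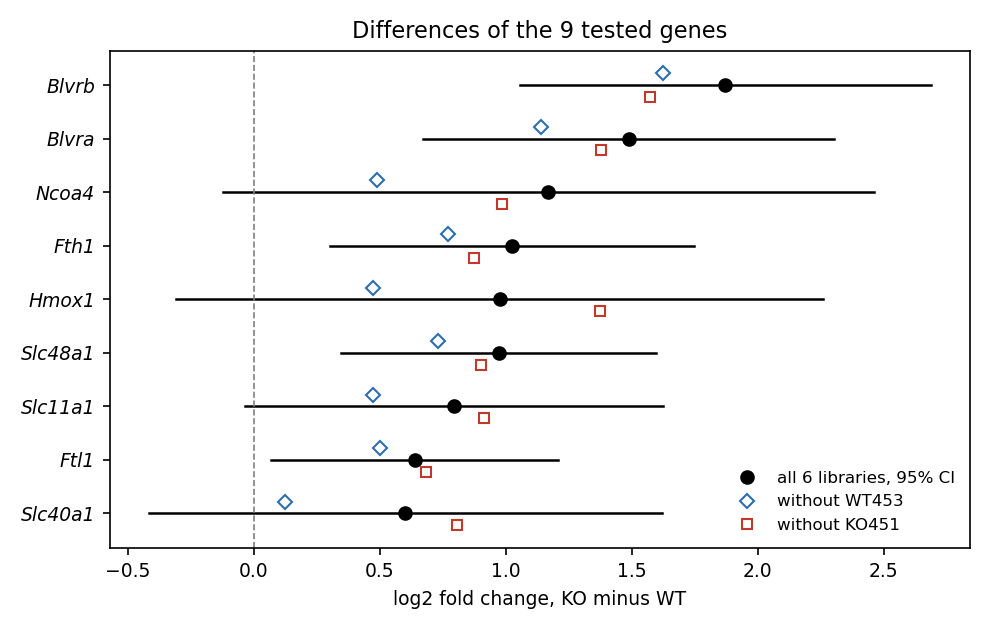
Log2 fold change, KO minus WT, of the 9 tested genes (filled circles, with 95% intervals from limma), and the same without WT453 (diamonds) and without KO451 (squares). Blvrb (1.87) and Blvra (1.49) lie highest under all 3, and the value of Slc40a1 without WT453 is 0.12.

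Per kilobase of transcript, which allows levels to be compared between genes, the members spanned a wide range. Ftl1 had 2375 RPKM (CPM per kilobase) in KO and 1682 RPKM in WT libraries. Fth1 followed with 1971 RPKM in KO and 1087 RPKM in WT libraries, and Hmox1 with 1021 RPKM in KO and 569 RPKM in WT libraries. Blvrb had 287 RPKM in KO libraries, above Slc40a1 at 209.5 RPKM, whereas in WT libraries Blvrb had 87.3 RPKM, below Slc40a1 at 164 RPKM. That switch in order came with overlapping spreads, since the SD was 99.7 RPKM for Blvrb and 68.1 RPKM for Slc40a1 in KO libraries and 30.4 and 80.8 RPKM in WT libraries. Slc48a1 had 95.4 RPKM in KO and 55.2 RPKM in WT libraries, Blvra 82.5 and 34.1 RPKM, Slc11a1 48.8 and 31.6 RPKM, and Ncoa4 20.4 and 12.0 RPKM. The means ± SD of Hmox1 met those of neither Blvrb nor Slc40a1 in either group, and the same held for Slc40a1 with Slc48a1 and for Slc11a1 with Ncoa4, whereas the other neighbours met in at least 1 group. Lengths from merged exons instead of the principal transcript would exchange Hmox1 with Fth1 and reorder Blvrb, Slc40a1 and Slc48a1.

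The 10 genes took 6389, 9448 and 5968 CPM in KO451, KO452 and KO457, against 2810, 4933 and 5682 CPM in WT453, WT454 and WT455. Each KO library had a higher sum than each WT library, although KO457 and WT455 were close. The means were 7268 ± 1900 CPM in KO and 4475 ± 1490 CPM in WT libraries (SD, n = 3 each), a ratio of 1.62, and of 1.37 without WT453. Ftl1, Fth1, Hmox1 and Slc40a1 gave between 85.0% and 91.7% of the sum in each library, so that it says little of the other 6.

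The members did not vary between libraries as 1 block. KO452 was the highest of the 6 libraries in Hmox1, Slc40a1, Slc11a1 and Ftl1, and it was also the highest in the 21 macrophage markers, whose mean log2 value lay 0.92 above the 6-library mean. KO451 was the highest in Blvra, Blvrb, Slc48a1, Fth1 and Ncoa4, and it was the highest in the 19 red cell precursor markers. For Blvra and Slc48a1 this order depended on the scaling. By CPM, KO452 was the highest in both, with 111 CPM against 104.8 CPM in KO451 for Blvra and 275 CPM against 253 CPM for Slc48a1. In KO451, Hmox1 lay at -0.31 from its 6-library mean and Blvrb at 1.54. Among WT libraries WT455 was the highest and WT453 the lowest in each of the 9 genes, and WT453 was the lowest of all 6 in 25% of all genes tested. The part of macrophages and red cell precursors in these patterns was not tested.

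**Figure D3:**
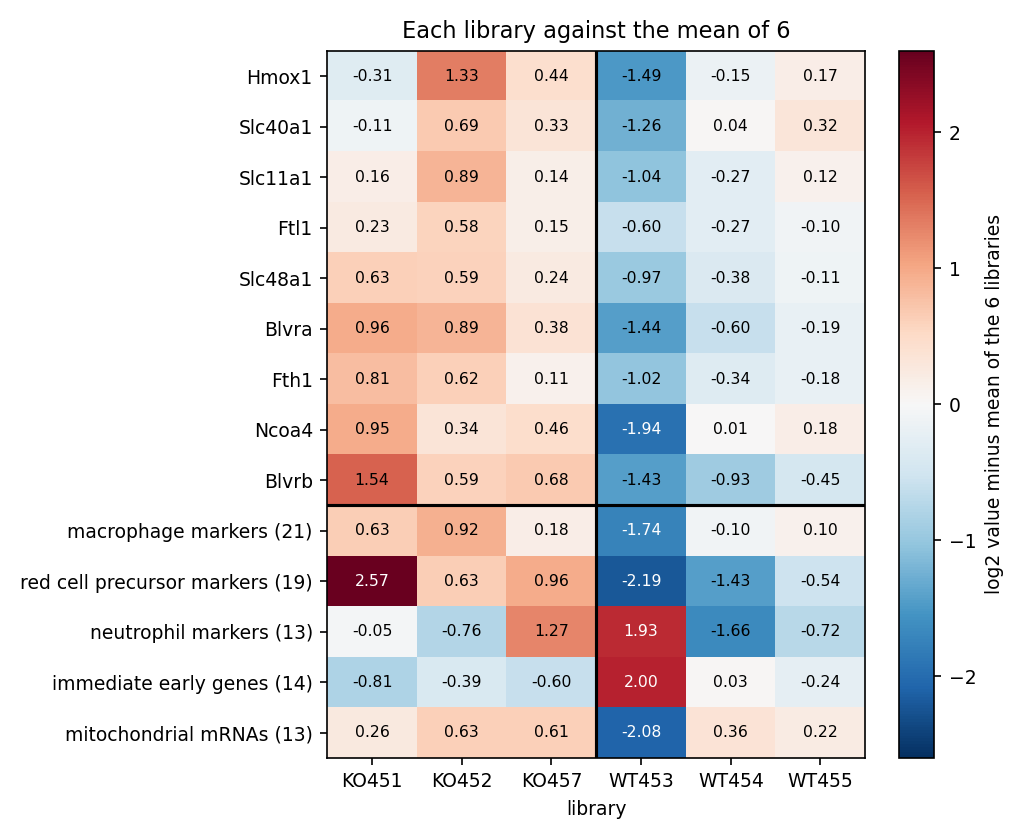
Log2 value of each tested gene, and mean log2 value of each marker list (number of genes in brackets), minus its mean over the 6 libraries, with KO libraries left of WT libraries. Hmox1, Slc40a1, Slc11a1 and Ftl1 peak in KO452, the other 5 genes peak in KO451, and all 9 are lowest in WT453. Blvra and Slc48a1 are nearly level in KO451 and KO452.

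In a bulk sample, more cells of a type and more RNA of a gene per cell cannot be told apart. All 21 macrophage markers, 7 of which stand on other lists used here, had a higher mean in KO spleens (median log2 fold change 1.16, or 0.51 without WT453). Without WT453, Cd163 was lower in KO spleens, at -0.18. The summed level of the macrophage markers was 5703 to 9686 CPM in KO and 1560 to 5915 CPM in WT libraries. The 19 tested red cell precursor markers were all higher, with a median of 2.85, or 2.33 without WT453, and a summed level of 28509 to 84706 CPM in KO and 2485 to 12822 CPM in WT libraries. In both lists 0 genes passed the adjusted limma test, while 7 macrophage and 19 red cell precursor markers had an unadjusted p under 0.05, or 4 and 17 without WT453. Of all genes, 5.5% were higher in KO spleens at that threshold, or 8.53% without WT453. Each tested marker of both lists averaged above 1 CPM in both groups.

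Set against the mean log2 level of the 21 macrophage markers in the same library, no member had all KO libraries above or all below the WT libraries. Blvrb was 0.72 and Blvra 0.33 higher in KO spleens on this relative scale, whereas the difference was -0.18 for Hmox1, -0.55 for Slc40a1 and -0.51 for Ftl1. For Blvra the 3 KO values were -0.97, -1.33 and -1.10, against -0.996, -1.81 and -1.60 in WT453, WT454 and WT455. All KO values of Blvra, and of Blvrb, were thus above those of WT454 and WT455, and WT453 was the exception. Without WT453 the difference was 1.05 for Blvrb and 0.57 for Blvra, and between -0.45 (Slc40a1) and 0.20 (Fth1) for the other 7.

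Set against the 19 red cell precursor markers, all 9 genes were lower in KO spleens, with differences between -0.90 for Blvrb and -2.17 for Slc40a1, and no KO library reached a WT library in any of them. The members were thus higher in KO spleens by less than the red cell markers were. Each of the 19 markers was itself higher in every KO library than in any WT library. A gene with a smaller difference than theirs therefore tends to come out lower on this scale. How many of all genes do so was not counted. For Hmox1 the margin was narrow, at 3.467 in KO452 against 3.471 in WT453. Relative values share the markers, so the 9 genes are not independent of each other here.

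**Figure D4:**
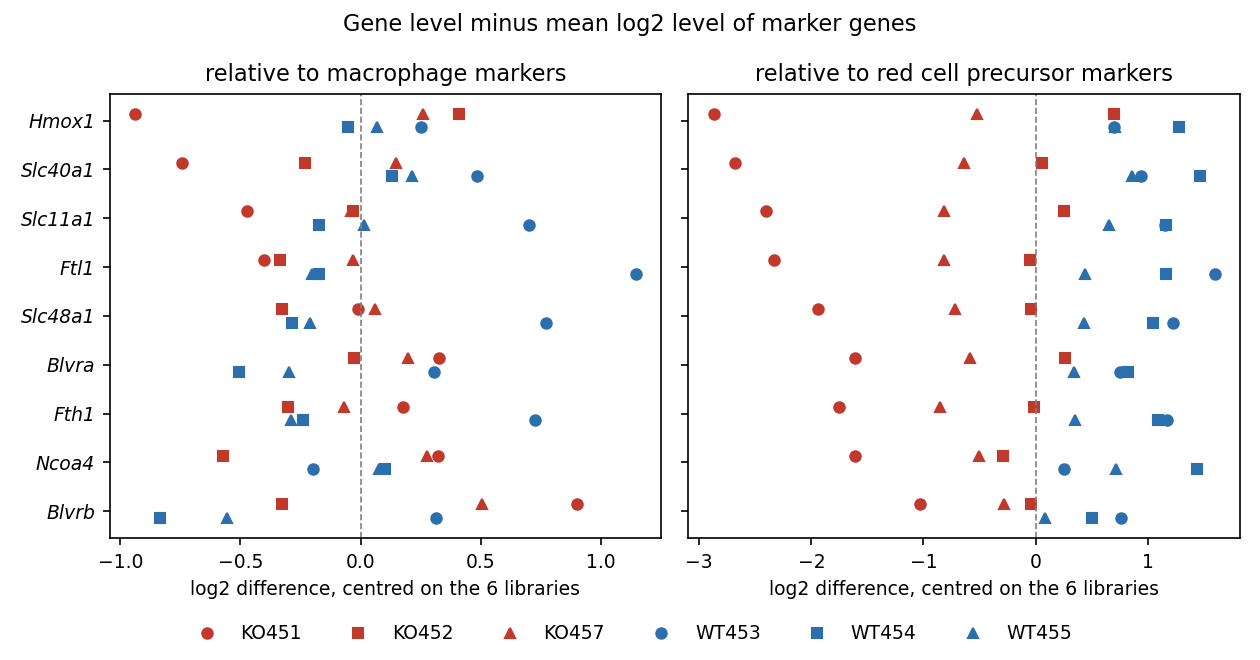
Log2 level of each tested gene minus the mean log2 level of macrophage markers (left) or red cell precursor markers (right) in the same library, centred on the mean of the 6 libraries, with KO points above WT points in each row. Left, the groups overlap for every gene; right, the 3 KO points lie below the 3 WT points for every gene.

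Other genes of heme and iron handling were counted by list, to be read beside a median of -0.03 over all genes tested and the 5.5% of all genes that were higher in KO spleens at an unadjusted limma p under 0.05. That share was 8.53% in the fit without WT453. Of 13 tested genes of iron uptake and release, 10 were higher in KO spleens (median log2 fold change 1.34, or 0.92 without WT453). The adjusted limma test passed 0, and 6 were higher at an unadjusted p under 0.05, against 4 higher and 1 lower without WT453. The 6 were Tfrc, Tfr2, Slc39a8, Cp, Slc25a37, which imports iron into the mitochondria of developing red cells, and Steap3, the ferrireductase of their endosomes. Tfrc, the transferrin receptor through which red cell precursors take up iron, had 1155, 210.1 and 273.5 CPM in KO451, KO452 and KO457, against 138, 70.4 and 119 CPM in WT453, WT454 and WT455 (log2 fold change 2.09 ± 0.66, SE). Tfr2, a receptor that senses transferrin iron, showed a log2 fold change of 1.43 ± 0.41, and the metal importer Slc39a8 one of 1.25 ± 0.34 (SE).

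The list of heme transport genes also held Hmox2 and Por, at log2 fold changes of 0.17 ± 0.21 and 0.26 ± 0.28 (SE). All 8 tested genes of the list were higher in KO spleens, with a median of 0.34, or 0.39 without WT453, and 0 passed the adjusted test. Abcg2, Abcb6 and the folate and heme carrier Slc46a1, 3 in all, had an unadjusted limma p under 0.05, against 1 gene without WT453. Abcg2, which exports porphyrins and heme, averaged 62.5 CPM in KO spleens and 18.03 CPM in WT spleens (log2 fold change 1.69 ± 0.53, SE). Abcb6, a porphyrin transporter, averaged 43.3 CPM in KO spleens and 12.4 CPM in WT spleens (1.81 ± 0.59, SE). Flvcr1 and Flvcr2 were not analysed here. Of 11 genes of red cell recognition and hemoglobin scavenging, 10 were higher with a median of 0.76, or 0.46 without WT453, and 2 (1 without WT453) had an unadjusted p under 0.05 while 0 passed the adjusted test. One of these, Sirpa, the receptor for the CD47 signal of red cells, averaged 196 CPM in KO spleens and 122 CPM in WT spleens, and the other, Timd4, a receptor for dying cells, 43.0 CPM in KO spleens and 13.8 CPM in WT spleens. The log2 fold change of Sirpa was 0.93, or 0.54 without WT453, and that of Timd4, whose groups overlapped, was 1.92, or 1.12 without WT453. Hp and Cd163, the hemoglobin scavengers of the list, had log2 fold changes of 0.09 ± 0.81 and 0.35 ± 0.52 (SE). Without WT453 these were 0.98 and -0.18. Hpx, which binds free heme, was the 1 lower gene and lay below 1 CPM.

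Of 8 genes listed under iron sensing, not all of them sensors themselves, 5 were higher and 3 lower with a median of 0.14, or 0.02 without WT453. The adjusted test passed 0, and the 1 gene with an unadjusted limma p under 0.05, Bdh2, averaged 0.068 CPM in KO spleens and had 0 reads in WT spleens. Without WT453, 1 gene was higher and 1 lower at that threshold. Aco1, which encodes an iron regulatory protein, showed a log2 fold change of 0.51 ± 0.29 (SE), or 0.24 without WT453. Ireb2, which encodes the other such protein, showed one of 0.03 ± 0.18 (SE). The mRNA of both proteins that bind the ferritin hairpins shown above thus overlapped between the groups.

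Among 13 regulators of heme and iron genes, 10 were higher with a median of 0.24, and 4 had an unadjusted limma p under 0.05, with 0 past the adjusted threshold. Nr1h3, Spic and Pparg were among the 4. Spic, the heme-induced factor that red pulp macrophages need, had 181, 221 and 127 CPM in KO451, KO452 and KO457, against 39.6, 103 and 121.5 CPM in WT453, WT454 and WT455. Its groups were apart by a narrow margin between KO457 and WT455, and its log2 fold change of 1.27 ± 0.42 (SE) was 0.79 without WT453. Bach1, the heme-sensing repressor of Hmox1, and Nfe2l2, which encodes NRF2, had log2 fold changes close to 0, at -0.0037 ± 0.17 and -1.88e-04 ± 0.24 (SE).

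Of 12 other targets of NRF2, 9 were higher and 3 lower, with a median of 0.43, or 0.88 without WT453. The adjusted test passed 0, and 4 had an unadjusted limma p under 0.05, all higher in KO spleens: Nqo1, Gclm, Gclc and Me1, which was below 1 CPM. Nqo1, a quinone reductase, had 26.3, 10.4 and 15.9 CPM in KO451, KO452 and KO457, against 3.35, 4.19 and 7.05 CPM in WT453, WT454 and WT455, without overlap (log2 fold change 1.96 ± 0.45, SE). Gclm and Gclc, the subunits of the enzyme that starts glutathione synthesis, had log2 fold changes of 1.23 ± 0.34 and 1.003 ± 0.32 (SE).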

How the data were processed

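Total RNA of spleens from 3 knockout and 3 wild-type mice was made into mRNA libraries, per the labels' protocols. Per the submitters' processing notes, the build was GRCm38 and the tools were DESeq, StringTie 1.3.1c, STAR 2.5.3a and FastQC 0.11.5, with no role for each. The sources used here do not give the counting, annotation, filters or strand. For each gene and library, the authors deposited a log2 value, and for each gene their own log2 fold change, p-value and FDR. Read from the values, each log2 value is that of reads divided by a size factor, plus 1: the steps gave whole reads for 100% of values within a tolerance of 0.001. CPM and RPKM were computed from these reads, RPKM with the length of the principal GENCODE transcript.

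Limma 3.58.1 (R 4.3.3) with an intensity trend was fitted to the deposited log2 values of 22071 genes with a mean normalized count of at least 1 (4381 genes left out), with 2 groups, no covariate and Benjamini-Hochberg adjustment at 0.05. It was tested on simulated counts with known changes. These had the same dispersion for every gene and no library that stood apart, which is unlike the data here. Since 1 is added before the log2, fold changes of genes with few reads come out too small. Ratios were compared by exact permutation.

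The 10 members, the 17 gene lists (202 entries) and the tests were chosen with earlier results of these data known. Named genes are the members, up to 4 genes of each list with the smallest unadjusted p and at least 1 CPM in the higher group, Hmox2 and Was. Outside that rule, Ireb2, Bach1, Nfe2l2, Steap3, Slc25a37, Bdh2, Me1, Por, Hp, Cd163 and Hpx were named after their values were seen. So were Hdac7 and the ferritin copies, which share sequence or position with a member. Some genes that the rule names are left out of the text. Alternatives were a pseudocount of 0.1, other filters and scalings, voom on the recovered reads, weights per library and each library left out.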

Additional observations from a re-analysis of the deposited data

How the results depend on the processing

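All 117 recomputed fold changes of the 9 tested genes (13 alternative settings) were above 0, between 0.11 and 2.12 on the log2 scale, and adjusted limma p values lay between 0.0632 and 0.83, so that 0 passed in any. The count of members at an unadjusted p under 0.05 was 5, and with 1 library left out it lay between 3 (without KO451, beside 3.44% of all genes) and 7 (without WT455, beside 4.43%). Members without overlap between the groups numbered 7, against 6 with total-read scaling (Slc11a1 lost) and 5 with quantile normalization (Slc11a1 and Ftl1 lost). The cause of these changes was not tested. Scaling by total reads moved the median of all genes to -0.17, and relative to it the members lay between 0.62 and 1.89. With weights per library, which gave WT453 a weight of 0.16, the members lay between 0.11 and 1.44. No paired analysis was possible because the knockout and wild-type mice share no numbers. With 3 libraries a group, 1 of which stands apart, a log2 difference such as that of Slc40a1, with an interval of -0.42 to 1.62, cannot be told from 0.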

Other observations

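Lists of other spleen cells were read on the same scale, where higher and lower refer to means of log2 values. Neutrophil markers were higher in KO spleens in 10 of 13 genes on this scale, with a median log2 fold change of 0.40, or 1.68 without WT453. By mean CPM, all of them but Ly6g were lower in KO spleens, and WT453 had the highest sum of the 6 libraries. Summed levels overlapped, at 12931 to 58779 CPM in KO and 5780 to 94729 CPM in WT libraries. Csf3r, the receptor for granulocyte colony-stimulating factor, was lower in KO spleens on both scales. It had 104, 91.5 and 121 CPM in KO451, KO452 and KO457, against 364, 218 and 186 CPM in WT453, WT454 and WT455 (log2 fold change -1.08 ± 0.31, SE). B cell markers were lower in 9 of 10 genes, with a median of -0.64, or -1.13 without WT453, and T cell markers in 10 of 10, with a median of -0.60, or -0.96 without WT453. Monocyte markers were higher in 5 of 8 genes with a median of 0.13, or 0.03 without WT453, and megakaryocyte markers in 8 of 10 with a median of 0.78, or 0.46 without WT453. In each of these lists 0 genes passed the adjusted limma test, and at an unadjusted p under 0.05 there were 2 megakaryocyte genes, 1 gene each of the neutrophil, B cell and monocyte lists, and 0 T cell genes. Without WT453, 9 of 10 B cell and 8 of 10 T cell genes were lower at an unadjusted p under 0.05, beside 9.67% of all genes in that fit, and 5.46% of all genes with all 6 libraries.

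Cela1, an elastase on the list of exocrine pancreas genes, had 40.0, 44.0 and 32.0 CPM in KO451, KO452 and KO457, against 14.02, 22.5 and 24.2 CPM in WT453, WT454 and WT455, a log2 fold change of 1.11 ± 0.26 (SE) without overlap. The pancreas list had summed levels of 32.2 to 44.1 CPM in KO and 14.02 to 24.2 CPM in WT libraries, nearly all of it Cela1. Its median was 1.495 over the 4 tested of 7 listed genes, with and without WT453. The tested genes other than Cela1 were below 1 CPM in every library, so this median rests on genes with few reads and says little.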
